A study of Rattus norvegicus with 10 samples.

Results

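Adult rat liver expresses a set of genes according to the pattern in which growth hormone reaches it, and 10 such genes were followed here in the cirrhotic livers of 10 male Wistar rats. They were the male-type enzyme genes Cyp2c11, Cyp2c13 and Cyp2a2, the female-type enzyme genes Cyp2c12, Sult2a2 and Akr1b7, the receptor and signalling genes Ghr and Stat5b, and the hormone genes Igf1 and Igfals. The list was selected on measured values of these livers, in which the male-type and female-type genes stood far from the rest in a few rats. The levels of those genes rat by rat, and their correlations with each other, are therefore given as a description, without a test. Tests are given for their differences between the groups. Relations of Cyp2c11 and Cyp2c12 with other genes carry p-values that are descriptive only. All probe sets carrying a single symbol of these genes were taken, 13 of the 20826 single-symbol probe sets on the array and 10 of the 14217 genes they cover. Ghr had 2 such probe sets, Igf1 had 3 and every other gene had 1, and for these the one whose signal varied most over the 10 arrays gave the main value. A further probe set assigned to both Cyp2a2 and Cyp2a1 was not used.

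Cirrhosis was induced in all 10 male Wistar rats by inhalation of CCl4, a hepatotoxic solvent. In the CVX-060 group, 5 cirrhotic rats received CVX-060, an inhibitor of the vascular ligand angiopoietin-2 (Ang2), at 10 mg/kg by tail vein injection once a week for 4 weeks. The vehicle group held 5 cirrhotic rats given vehicle solution once a week. Both groups therefore carry the CCl4 injury, ages are not given in the sources used here, and healthy livers were not analysed here. RNA came from whole frozen liver, 150 ng of it was labelled for each rat, and an Affymetrix Rat Genome 3′ expression array was hybridized for each rat. Values are log2 signals per probe set as normalized between arrays by the authors, so that a difference of 1 is a doubling of the signal.

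The pituitary releases growth hormone in pulses in male rats and more continuously in females. In hepatocytes the hormone binds its receptor, the product of Ghr, and the kinase Jak2 then activates Stat5b, which enters the nucleus and acts on target promoters. Pulses sustain the male-type genes and repress several female-type genes, whereas continuous hormone does the reverse. Igf1 and Igfals, the genes of insulin-like growth factor I and of the acid-labile subunit that stabilizes it in the circulation, are targets of the same receptor in both sexes and carry the growth-promoting output of the liver.

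The 3 cytochrome P450 genes of the Cyp2c family carry the central contrast of the set, since Cyp2c11 and Cyp2c13 are male-type and Cyp2c12 is female-type although all 3 lie on chromosome 1. In the RefSeq annotation of the rat assembly GRCr8, Cyp2c11 spans chr1:246175216-246211445, Cyp2c12 spans chr1:248619887-248681945 and Cyp2c13 spans chr1:248706787-248787239. Their promoter windows, from 250 bases before to 50 bases after the annotated start site, are shown to set the 3 side by side. Capitals mark the letters ATTGAT or ATCAAT, the same motif on either strand, which is a core recognized by Onecut factors, regulators of Cyp2c12 in female rat liver.
Cyp2c11, chr1:246174966-246175265, + strand: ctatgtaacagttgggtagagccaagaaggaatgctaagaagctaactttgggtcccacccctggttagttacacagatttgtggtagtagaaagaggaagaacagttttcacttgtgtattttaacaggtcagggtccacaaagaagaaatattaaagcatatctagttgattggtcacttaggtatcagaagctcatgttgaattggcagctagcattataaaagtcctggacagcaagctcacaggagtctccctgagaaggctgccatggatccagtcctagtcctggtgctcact
Cyp2c13, chr1:248787139-248787438, - strand: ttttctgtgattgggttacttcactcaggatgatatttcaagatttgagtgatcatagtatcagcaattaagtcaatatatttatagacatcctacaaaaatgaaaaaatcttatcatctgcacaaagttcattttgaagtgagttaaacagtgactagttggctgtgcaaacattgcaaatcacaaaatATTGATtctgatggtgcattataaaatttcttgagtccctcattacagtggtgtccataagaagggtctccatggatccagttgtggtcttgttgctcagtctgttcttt
Cyp2c12, chr1:248676985-248677284, - strand: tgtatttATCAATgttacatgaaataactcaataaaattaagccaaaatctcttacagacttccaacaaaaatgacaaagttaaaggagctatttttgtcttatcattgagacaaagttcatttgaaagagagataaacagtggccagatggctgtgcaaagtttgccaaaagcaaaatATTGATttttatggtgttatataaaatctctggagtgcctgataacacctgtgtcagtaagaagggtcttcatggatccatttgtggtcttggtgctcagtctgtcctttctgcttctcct
The motif stood 71 and 243 bases before the start in Cyp2c12 and 60 bases before it in Cyp2c13, and these letters were not in the Cyp2c11 window. The Cyp2c12 and Cyp2c13 windows were 65.8% identical in a global alignment, whereas the Cyp2c11 window was 51.1% identical to that of Cyp2c12 and 53.9% identical to that of Cyp2c13. Of the 10 genes, 9 had a window in RefSeq and Cyp2a2 had none, and 3 of the 9 windows held ATTGAT or ATCAAT (Cyp2c12, Cyp2c13 and Ghr, the last at 41 bases before the start), against 8.06% of 33469 windows over the genome. The letters TTCNNNGAA, a palindrome bound by Stat5 dimers, were in 0 of the 9 windows and in 8.87% of all windows, and ATCGAT, a core of Cux factors, was in 0 of 9 and in 0.896%. These are letter matches only, and some RefSeq starts lie inside their gene records (by 100520 bases in Ghr, 6774 in Igfals, 4911 in Cyp2c12 and 2924 in Igf1), so that other starts of these genes were not searched.

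All 10 livers carried male transcripts. The Y-linked gene Eif2s3y lay between 8.99 and 9.36 and Uty between 8.12 and 8.91 over the 10 rats, while Xist, the transcript of the inactive X chromosome, lay between 3.50 and 3.91. Array medians lay between 5.52 and 5.57. CVX-060 rat 5 and vehicle rat 2 stood apart on the first principal component over all genes, which held 35.4% of the variance, at 35.5 and 34.5 where the other 8 rats lay between -26.2 and 9.74, and the main results that rest on these rats are given with and without them. The paper kept 2 replicates per treatment after quality control and a principal component plot. Which rats these were is not given in the sources used here, and all 10 were used. For each array, a background level was set at the 95th percentile over 20 probe sets of sensory receptors that liver does not use (olfactory, vomeronasal and trace amine receptors), and it ran from 5.34 to 6.06. Of the 10 genes, 8 lay above it in all 10 rats, Sult2a2 in 4 CVX-060 and 2 vehicle rats, and Akr1b7 in 2 CVX-060 rats and 1 vehicle rat. The brightest probe set of any array lay between 14.77 and 14.81, and whether the bright signals of Cyp2c11 and Cyp2c13 were compressed near that limit was not tested.

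**Figure D1:**
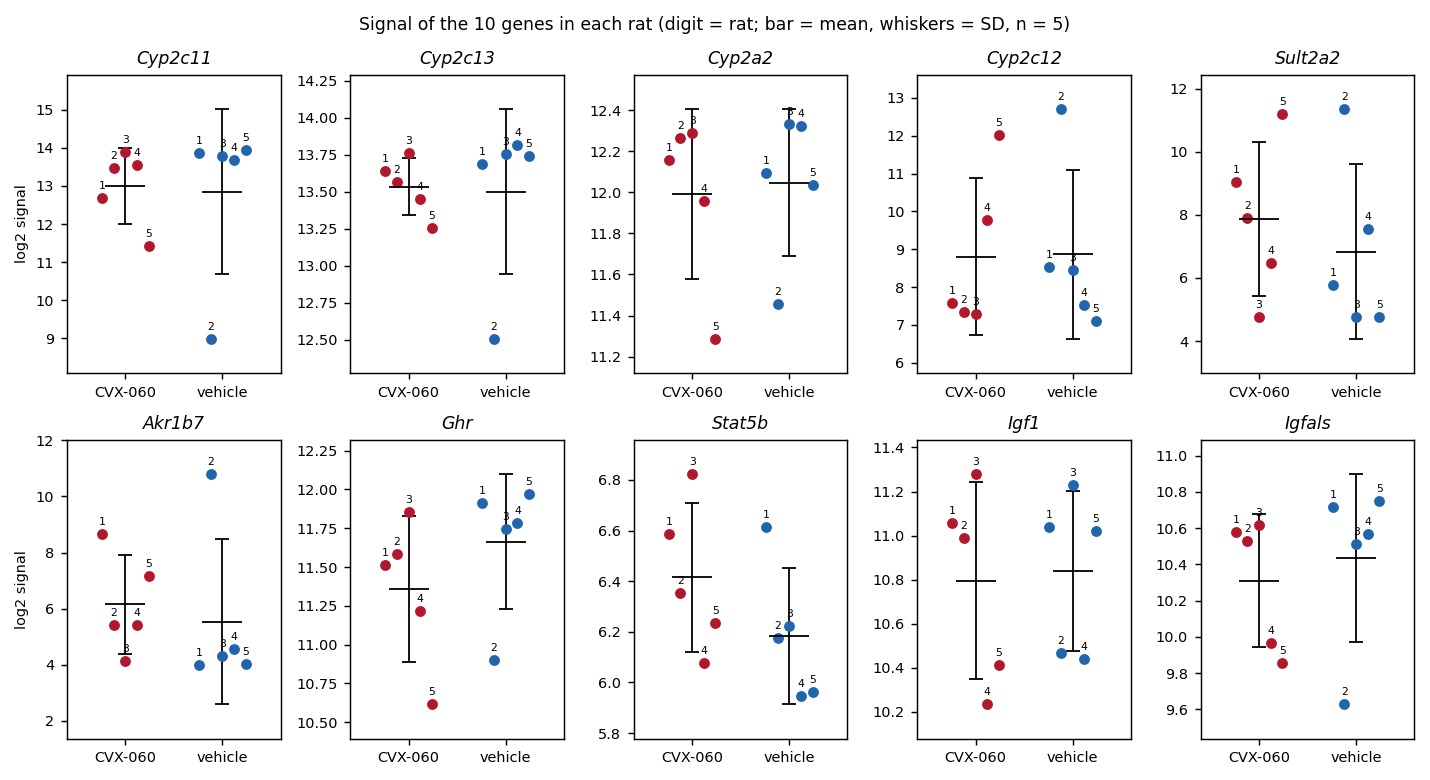
Log2 signal of each of the 10 genes in each rat, CVX-060 left and vehicle right in every panel, with each point numbered by rat, the horizontal bar at the group mean and whiskers of 1 SD (n = 5 rats per group). The axes differ between panels and do not start at 0. The points of CVX-060 rat 5 and vehicle rat 2 lie at the low end for Cyp2c11, Cyp2c13, Cyp2a2, Ghr and Igfals and at the high end for Cyp2c12 and Sult2a2, and the groups overlap in every panel.

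Among the male-type genes, 1 rat of each group had a Cyp2c11 signal far below the others. Cyp2c11 encodes the main steroid-hydroxylating cytochrome P450 of adult male rat liver. Its log2 signal was 12.69, 13.46, 13.90, 13.54 and 11.42 in CVX-060 rats 1 to 5, and 13.87, 8.99, 13.80, 13.68 and 13.93 in vehicle rats 1 to 5. Vehicle rat 2 was lowest, CVX-060 rat 5 second lowest and CVX-060 rat 1 the third lowest, and the remaining 7 rats lay within 13.46 to 13.93. Lowest and highest rat differed 30.9-fold, and the variance of Cyp2c11 was the 30th largest of the 14217 genes.

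Cyp2c13, another male-specific steroid hydroxylase, moved over a narrower range. It lay at 13.64, 13.56, 13.76, 13.45 and 13.26 in the CVX-060 rats and at 13.69, 12.50, 13.76, 13.82 and 13.74 in the vehicle rats, a 2.48-fold range. Vehicle rat 2 and CVX-060 rat 5 were again the lowest. The suffix of its probe set, _s_at, marks probes that match more than 1 transcript, so that a share of this signal may come from related genes and its range is uncertain. Cyp2a2, a male-specific testosterone hydroxylase, had 12.15, 12.26, 12.29, 11.96 and 11.29 in the CVX-060 rats and 12.09, 11.45, 12.33, 12.32 and 12.03 in the vehicle rats. Here CVX-060 rat 5 was lowest and vehicle rat 2 second lowest, over a 2.06-fold range. The 3 male-type genes thus shared their lowest 2 rats, while CVX-060 rat 1, low in Cyp2c11, was near the median of the 10 rats in the other 2 genes. These lowest 2 rats were apart in many other genes too. Both lay below the other 8 rats in 5 of the 10 genes, beside 8.23% of all 14217 genes. Both lay above them in 2 of the 10, beside 9.31% of all genes. Because the list was selected on such values, these shares are a description.

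The female-type genes were high in the same rats, but not in these rats alone. Cyp2c12 encodes the steroid sulfate hydroxylase that is typical of female rat liver. Its signal was 7.58, 7.34, 7.28, 9.79 and 12.02 in CVX-060 rats 1 to 5 and 8.54, 12.71, 8.44, 7.52 and 7.11 in vehicle rats 1 to 5. CVX-060 rat 5 and vehicle rat 2 lay 4.01 and 4.70 above the median of the 10 rats, CVX-060 rat 4 followed at 1.77 above it, and the remaining 7 rats lay between 7.11 and 8.54. Lowest and highest rat differed 48.6-fold, with the 13th largest variance of all genes.

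Sult2a2, a sulfotransferase of hydroxysteroids and bile acids, had 9.04, 7.90, 4.77, 6.47 and 11.18 in the CVX-060 rats and 5.77, 11.35, 4.76, 7.54 and 4.75 in the vehicle rats. CVX-060 rat 5 and vehicle rat 2 led, at 4.18 and 4.35 above the median, but the others were spread from background upwards, with CVX-060 rat 1 next at 9.04. Akr1b7, an aldo-keto reductase that reduces lipid-derived aldehydes, had 8.67, 5.43, 4.14, 5.42 and 7.15 in the CVX-060 rats and 3.98, 10.79, 4.29, 4.57 and 4.04 in the vehicle rats. Vehicle rat 2 was highest and CVX-060 rat 1 second, ahead of CVX-060 rat 5, and the other 7 rats did not exceed background. Sult2a2 and Akr1b7 had the 4th and 8th largest variance of the 14217 genes, and since their low values lie in the background, the size of their range is uncertain.

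The receptor gene Ghr was lowest in the rats lowest in Cyp2c11. Its main probe set read 11.52, 11.58, 11.86, 11.22 and 10.62 in the CVX-060 rats and 11.91, 10.90, 11.74, 11.78 and 11.97 in the vehicle rats. CVX-060 rat 5 lay 1.05 and vehicle rat 2 lay 0.76 below the median of the 10 rats, and CVX-060 rat 4 was the third lowest. The other Ghr probe set read 8.99, 8.91, 9.11, 8.62 and 8.50 in the CVX-060 rats and 8.70, 8.34, 9.54, 9.04 and 9.64 in the vehicle rats, with the same 3 rats lowest. Stat5b, the signal transducer, had no such pattern, at 6.59, 6.35, 6.82, 6.07 and 6.24 in the CVX-060 rats and 6.61, 6.17, 6.22, 5.95 and 5.96 in the vehicle rats. Its values were close above background, and the 2 rats lowest in Ghr lay in the middle of its 0.87 log2 range.

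In the hormone genes CVX-060 rat 4 joined CVX-060 rat 5 and vehicle rat 2 among the low rats. Igfals was 10.58, 10.53, 10.62, 9.96 and 9.86 in the CVX-060 rats and 10.72, 9.63, 10.51, 10.57 and 10.75 in the vehicle rats. CVX-060 rat 4, CVX-060 rat 5 and vehicle rat 2 lay 0.59, 0.69 and 0.92 below the median of the 10 rats, and the other 7 rats lay within 10.51 to 10.75. The main Igf1 probe set read 11.06, 10.99, 11.28, 10.24 and 10.42 in the CVX-060 rats and 11.04, 10.47, 11.23, 10.44 and 11.02 in the vehicle rats. Its low rats were these 3 and vehicle rat 4, whose Cyp2c11 of 13.68 and Ghr of 11.78 lay in the upper part of their ranges. In the 2 brighter Igf1 probe sets the range was narrower, 1.35-fold and 1.42-fold against 2.06-fold. CVX-060 rats 4 and 5 and vehicle rat 2 were lowest in the first (13.26, 13.24 and 13.13, others up to 13.56). The same rats were lowest in the second (12.73, 12.745 and 12.81, others up to 13.24).

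**Figure D2:**
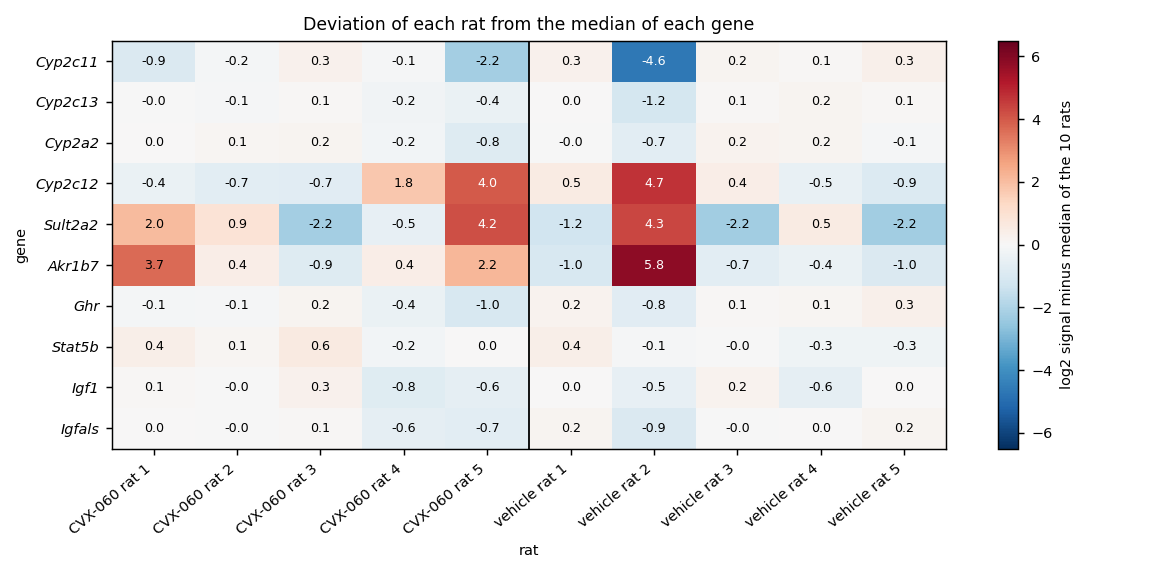
Log2 signal of each gene (down the page) in each rat (across, CVX-060 left of the line and vehicle right of it) minus the median of that gene over the 10 rats, with blue below and red above the median. CVX-060 rat 5 and vehicle rat 2 are the columns in which Cyp2c11 is low (at -2.19 and -4.63) while Cyp2c12, Sult2a2 and Akr1b7 are high, whereas CVX-060 rat 1 is high in Sult2a2 and Akr1b7 with Cyp2c12 below its median, and CVX-060 rat 4 is high in Cyp2c12 (at 1.77) with Cyp2c11 close to its median.

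Low Cyp2c11 went with high Cyp2c12 in the 2 extreme rats and not among the rest. Over the 10 rats their Pearson correlation was -0.85 (Spearman -0.70), and over the 8 rats other than CVX-060 rat 5 and vehicle rat 2 it was 0.02 (Spearman -0.40). CVX-060 rat 1 had the third lowest Cyp2c11, at 12.69, with a Cyp2c12 of 7.58, inside the range of the high-Cyp2c11 rats. Conversely, CVX-060 rat 4 had the third highest Cyp2c12, at 9.79, with a Cyp2c11 of 13.54. These correlations carry no p, because the set was chosen with this contrast in view.

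The other female-type genes kept their inverse order with Cyp2c11 among the 8 rats. The correlation of Cyp2c11 with Sult2a2 was -0.86 over 10 rats and -0.86 over the 8. Sult2a2 was not above background in CVX-060 rat 3 and vehicle rats 1, 3 and 5. CVX-060 rat 1, lowest of the 8 in Cyp2c11 (12.69) and highest in Sult2a2 (9.04), sets the end of that line. With Akr1b7 the correlation of Cyp2c11 was -0.91 and -0.99, although most Akr1b7 values of the 8 rats lie in the background and CVX-060 rat 1 again sets the end of the line. Sult2a2 and Akr1b7 correlated with each other at 0.87 over 10 and 0.81 over 8 rats, whereas Cyp2c12 correlated with Sult2a2 at 0.73 and -0.09 and with Akr1b7 at 0.68 and -0.02. Cyp2c13 followed Cyp2c11 at 0.96 over 10 and 0.40 over 8 rats.

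**Figure D3:**
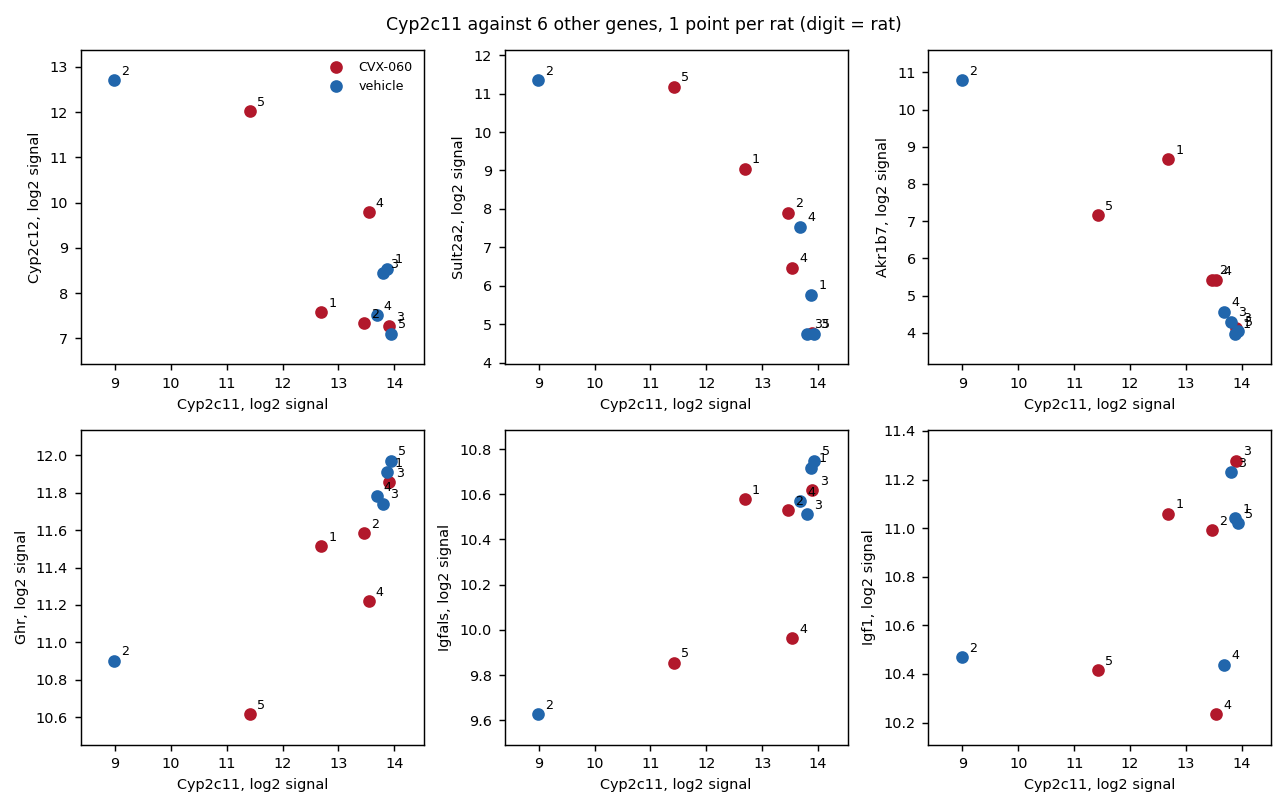
Log2 signal of Cyp2c11 (horizontal axis) against that of Cyp2c12, Sult2a2, Akr1b7, Ghr, Igfals and Igf1 (vertical axes), 1 numbered point for each rat, CVX-060 in red and vehicle in blue. Vehicle rat 2 and CVX-060 rat 5 lie at the left of every panel. Rat 1 of the CVX-060 group is low in the Cyp2c12 panel and high in the Sult2a2 and Akr1b7 panels.

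Lower Cyp2c11 and higher Cyp2c12 both went with lower Ghr and Igfals over the 10 rats, while the relation with Igf1 depended on the probe set. Each of Cyp2c11 and Cyp2c12 was correlated with Ghr, Igf1, Igfals, Stat5b and Col1a1, 10 relations in all, with two-sided permutation p-values over pairings and Benjamini-Hochberg adjustment over the 10. The genes were chosen with earlier results of these data and the extreme rats known, so these p-values are not an independent test. The p-values of all 10 relations, here and in the rest of the text, are therefore descriptive. Passing the threshold is not evidence for a relation. The largest gap between neighbouring rats was 0.492 of the range of Cyp2c11 and 0.399 of that of Cyp2c12. Cyp2c11 with Ghr gave r = 0.79 (permutation p = 0.0232, adjusted p = 0.0464) and Spearman's rho of 0.93 (permutation p = 4.2e-04, adjusted p = 0.0042). Without CVX-060 rat 5 and vehicle rat 2, the rats farthest from the median of Cyp2c11, r was 0.60 (exact permutation p = 0.212) and rho 0.88 (exact permutation p = 0.00724, adjusted p = 0.0724). The linear relation therefore rested on these 2 rats, and the rank order of the other 8 kept its direction without passing the adjustment. Leaving out any rat but CVX-060 rat 1 also left the linear relation short of the threshold, with r between 0.78 and 0.89 and adjusted exact permutation p between 0.0507 and 0.0718.

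Cyp2c11 with Igfals gave r = 0.83 (permutation p = 0.0068, adjusted p = 0.017) and rho = 0.81 (permutation p = 0.00728, adjusted p = 0.0243). Over the other 8 rats r was 0.20 (exact permutation p = 0.398) and rho 0.62 (exact permutation p = 0.115), so that this relation rested on the 2 rats as well. Leaving out CVX-060 rat 5 alone gave r = 0.80 (adjusted exact permutation p = 0.0884), and vehicle rat 2 alone r = 0.69 (adjusted exact permutation p = 0.144). Cyp2c11 with Igf1 did not pass, at r = 0.47 (permutation p = 0.198, adjusted p = 0.247) and rho = 0.50 (permutation p = 0.142). With the Igf1 probe set of highest mean signal, r was 0.79 and the adjusted permutation p 0.0165. Cyp2c11 with Stat5b gave r = 0.13 (permutation p = 0.807) and rho = 0.04 (permutation p = 0.921).

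By Pearson's r, Cyp2c12 had the closest relations of the 10, with Igfals and Ghr, whereas by rank Cyp2c11 with Ghr was closest. It gave r = -0.94 with Igfals (permutation p = 0.00168, adjusted p = 0.0084) and rho = -0.77 (permutation p = 0.0127, adjusted p = 0.0318). With Ghr it gave r = -0.90 (permutation p = 0.00456, adjusted p = 0.0152) and rho = -0.75 (permutation p = 0.0171, adjusted p = 0.0342). CVX-060 rat 4, the third highest in Cyp2c12 and the third lowest in Ghr and Igfals, followed the line of the 2 extreme rats. Over the 8 rats without CVX-060 rat 5 and vehicle rat 2, r was -0.78 with Igfals (exact permutation p = 0.108) and -0.61 with Ghr (exact permutation p = 0.165), neither of which passed. Leaving out CVX-060 rat 5 or vehicle rat 2 alone gave an adjusted exact permutation p of 0.0589 for either gene, and leaving out CVX-060 rat 4 gave 0.0629 for Ghr. With Igf1, Cyp2c12 gave r = -0.65 (permutation p = 0.0607, adjusted p = 0.0867) and rho = -0.49 (permutation p = 0.155), and r = -0.85 (adjusted permutation p = 0.0144) with the Igf1 probe set of highest mean. With Stat5b it gave r = -0.22 (permutation p = 0.567) and rho = -0.05 (permutation p = 0.891). Groups of 5 rats are too small for a correlation within CVX-060 or within vehicle.

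Rats with low Cyp2c11 had high Col1a1, the gene of the main fibrillar collagen chain of scar. Col1a1 lay at 7.69, 7.36, 6.69, 7.12 and 8.18 in the CVX-060 rats and at 6.29, 8.25, 7.46, 7.44 and 6.61 in the vehicle rats, highest in vehicle rat 2 and CVX-060 rat 5 and next in CVX-060 rat 1. Its correlation with Cyp2c11 was r = -0.78 (permutation p = 2.6e-04, adjusted p = 0.0026) and rho = -0.85 (permutation p = 0.00266, adjusted p = 0.0133). Over the 8 other rats r was -0.69 (exact permutation p = 0.0136, adjusted p = 0.136) and rho -0.71 (exact permutation p = 0.0576), in the same direction and not past the adjusted threshold. With Cyp2c12, Col1a1 gave r = 0.67 (permutation p = 0.0341, adjusted p = 0.0568) and rho = 0.56 (permutation p = 0.0965), and r = -0.03 over the 8 other rats (exact permutation p = 0.896). As a description, Col1a1 correlated at 0.85 with Sult2a2, 0.80 with Akr1b7, -0.81 with Ghr and -0.73 with Igfals over 10 rats, and at 0.65, 0.65, -0.55 and -0.32 over the 8.

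**Figure D4:**
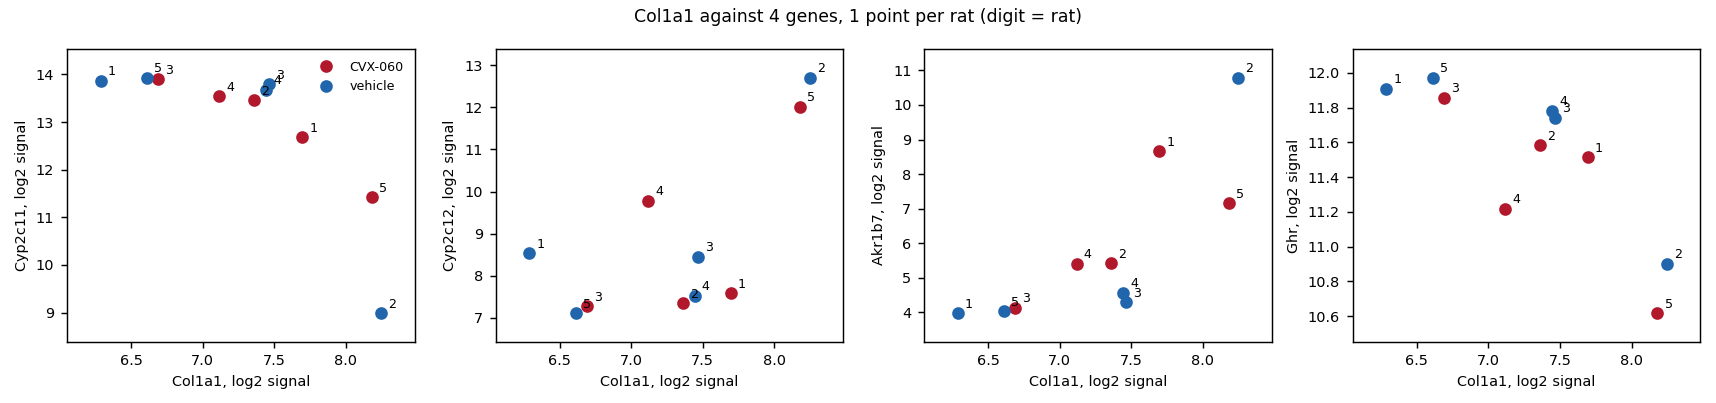
Log2 signal of Col1a1 (horizontal axis) against that of Cyp2c11, Cyp2c12, Akr1b7 and Ghr (vertical axes), 1 numbered point for each rat, CVX-060 in red and vehicle in blue. The rats highest in Col1a1 (8.18 in CVX-060 rat 5 and 8.25 in vehicle rat 2) are the lowest in Cyp2c11 and Ghr, and in the Cyp2c12 panel the other 8 rats show no slope (r = -0.03).

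Markers of some cell types differed in these rats too. The mean over 12 stellate cell and myofibroblast markers was 7.97 in CVX-060 rat 5 and 8.10 in vehicle rat 2, against 6.85 to 7.77 in the other 8 rats, and lay between 7.12 and 7.97 in CVX-060 rats and 6.85 and 8.10 in vehicle rats. The mean over 7 cholangiocyte markers was 5.98 and 6.15 in the 2 rats, against 5.07 to 5.95 in the others. The mean over 12 hepatocyte markers was 12.82 in CVX-060 rat 5 and 12.95 in vehicle rat 2, against 12.90 to 13.08 in the others. Several of these hepatocyte markers lie near the top of the array scale, among them Alb at 14.77 to 14.81, so that their mean can move little. Single hepatocyte markers did differ, and 5 of 12 (Apoa2, Apob, Apoc3, Fabp1 and Serpinc1) were lower in both rats than in every other rat, beside 8.23% of all genes. In the other direction, 1 of 12, Apoa1, was higher in both rats, at 13.43 in CVX-060 rat 5 and 13.77 in vehicle rat 2. The other 8 rats lay between 12.57 and 13.21 in Apoa1. Of the stellate cell and myofibroblast markers 5 of 12, and of the cholangiocyte markers 3 of 7, were higher in both rats than in every other rat, beside 9.31% of all genes. Of 8 macrophage and Kupffer cell markers, 1 was higher and 1 lower in both rats. Of 6 endothelial and 7 T and NK cell markers, 0 were higher and 0 lower in both. In whole liver, fewer cells of a type and less RNA per cell cannot be told apart, and the part of cell composition in the relations was not tested.

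CVX-060 was not associated with a detectable difference in any of the 10 genes. Of the 10, 0 passed an adjusted p of 0.05 in limma with Benjamini-Hochberg adjustment over 14217 genes (lowest adjusted p 0.99997), as did 0% of all genes. At an unadjusted p under 0.05 there were 0 of the 10 genes, beside 347 or 2.44% of all genes. The mean was higher with CVX-060 in 5 of the 10 and lower in 5, with a median log2 difference of -0.005 where the median over all genes was 0.006. Since 1 extreme rat stood in each group, the intervals of the variable genes were wide.

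Cyp2c11 averaged 13.0 ± 0.99 in CVX-060 rats and 12.85 ± 2.16 in vehicle rats (SD, n = 5 each), a difference of 0.15 on the log2 scale (95% interval -1.91 to 2.21, exact permutation test, two-sided, p = 0.976). Cyp2c12 averaged 8.80 ± 2.08 in CVX-060 rats and 8.86 ± 2.23 in vehicle rats, a difference of -0.06 (95% interval -2.70 to 2.58, exact p = 0.968). These intervals allow a change of several-fold in either direction, so a change of that size could not be detected with these rats. Sult2a2 averaged 7.87 ± 2.45 in CVX-060 rats and 6.83 ± 2.77 in vehicle rats, a difference of 1.04 (95% interval -2.16 to 4.24, exact p = 0.532) that was 0.212 without CVX-060 rat 5 and 2.17 without vehicle rat 2, and Akr1b7 differed by 0.63 (95% interval -2.35 to 3.60, exact p = 0.683). Neither exceeded the spread between rats.

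The steadier genes gave narrower intervals. Ghr averaged 11.36 ± 0.47 in CVX-060 rats and 11.66 ± 0.435 in vehicle rats (SD, n = 5 each), a difference of -0.30 (95% interval -0.87 to 0.26, exact permutation p = 0.317), and its other probe set gave -0.225 (exact p = 0.429). Stat5b differed by 0.23 (95% interval -0.13 to 0.59, exact p = 0.214), the smallest p of the 10. Igf1 differed by -0.04 (exact p = 0.810), by 0.003 and -0.08 in its other probe sets (exact p = 0.992 and 0.516), and Igfals by -0.13 (exact p = 0.746). Cyp2c13 differed by 0.03 and Cyp2a2 by -0.06 (exact p = 0.976 and 0.754). The smallest p that 5 rats against 5 allow is 0.0079. The clock gene Bmal1, whose level follows the time of day, averaged 7.25 ± 1.64 in CVX-060 rats and 6.15 ± 1.63 in vehicle rats (SD, n = 5 each), and with its level as a covariate 0 of the 10 genes passed.

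Leaving out CVX-060 rat 5 and vehicle rat 2, 1 from each group, narrowed the interval of 8 of the 10 genes, widened that of Stat5b and Igf1, and turned the sign of some differences without giving a call. Cyp2c11 then averaged 13.40 ± 0.51 in CVX-060 rats and 13.82 ± 0.11 in vehicle rats (SD, n = 4 each), a difference of -0.43 (95% interval -0.94 to 0.09, exact permutation p = 0.114). All 4 vehicle rats lay between 13.68 and 13.93, and 3 of the 4 CVX-060 rats lay below them. Akr1b7 differed by 1.69 (95% interval -0.16 to 3.54, exact p = 0.0857), but only CVX-060 rat 1, at 8.67, lay above background among these 8 rats and carried the difference. Ghr differed by -0.31 (95% interval -0.61 to -0.01, exact p = 0.0857), where 4 rats against 4 cannot give a p below 0.0286. In limma Ghr had an unadjusted p of 0.0449 and an adjusted p of 0.9999, and 581 of 14217 genes had an unadjusted p under 0.05 in that fit.

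**Figure D5:**
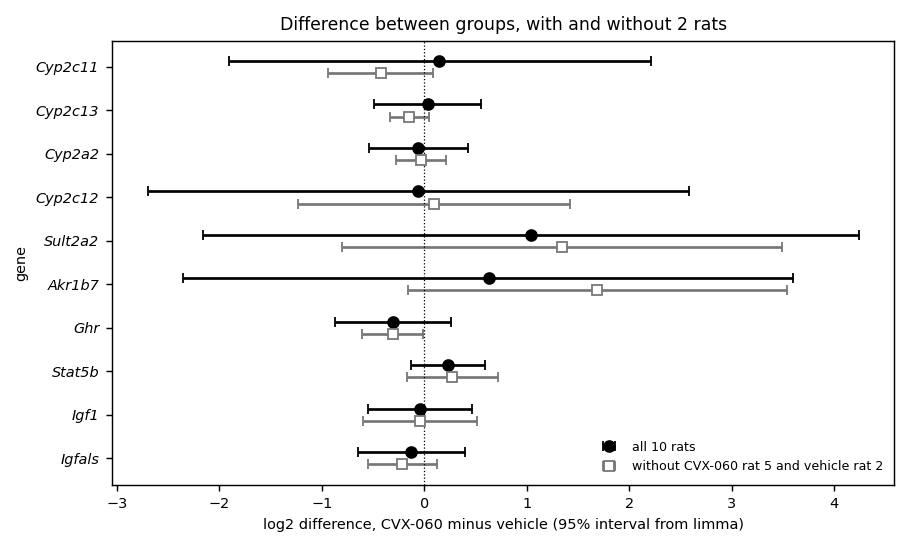
CVX-060 minus vehicle difference of each of the 10 genes on the log2 scale, with its 95% interval from limma, for all 10 rats (filled circles, n = 5 each) and without CVX-060 rat 5 and vehicle rat 2 (open squares, n = 4 each). With all rats every interval includes 0, and the widest belong to Cyp2c12, Sult2a2 and Akr1b7. Without the 2 rats the interval of Ghr ends at -0.01.

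Beyond the 10 genes, several male-biased liver genes had a pattern like that of Cyp2c11. A correlation with Cyp2c11 above 0.8 over the 10 rats was found for 356 genes, 2.50% of the 14216 other genes, and below -0.8 for 497 genes, 3.50%. Over the 8 rats without CVX-060 rat 5 and vehicle rat 2, these shares were 0.950% (135 genes) and 1.10% (157 genes). Among the other 9 genes of the set, 3 lay above 0.8 over 10 rats (Cyp2c13, Cyp2a2 and Igfals) and 3 below -0.8 (Cyp2c12, Sult2a2 and Akr1b7), and over the 8 rats 0 lay above 0.8 and 2 below -0.8 (Sult2a2 and Akr1b7). The correlations of the sex-typed genes with Cyp2c11 follow from how the set was chosen and give it no support. Of 17 male-biased genes measured of 21 listed, 10 besides Cyp2c11 itself were above 0.8 and 0 below -0.8 over 10 rats, Cyp2c13 and Cyp2a2 among the 10. Over the 8 rats 4 were above 0.8, namely Mup5, Obp3, Stac3 and the hydroxyacid oxidase gene Hao2, the last named after its values were seen. Of 14 female-biased genes measured of 15 listed, 1 was above 0.8 and 4 below -0.8 over 10 rats, and those 4 were Cyp2c12, Sult2a2, Akr1b7 and the transcriptional cofactor gene Trim24, which was named after its values were seen.

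Mup5, a major urinary protein gene of male liver, correlated at 0.97 over 10 and 0.84 over 8 rats. It lay at 9.07 in CVX-060 rat 5 and 7.99 in vehicle rat 2, with the other 8 rats at 10.67 to 11.81. Hsd3b5, a ketosteroid reductase of male liver, correlated at 0.96 and 0.42, and Cyp3a18, a male-biased P450, at 0.93 and 0.70. Obp3, the gene of the urinary pheromone carrier alpha-2u globulin, was the widest ranging, with 5.85 in CVX-060 rat 5, 4.21 in vehicle rat 2 and up to 13.24 in the others, and was named after its values were seen. Sult1e1, estrogen sulfotransferase, was the list member counted above 0.8 among female-biased genes, at 0.98, with 11.92 in CVX-060 rat 5, 10.27 in vehicle rat 2 and 13.14 to 13.58 in the others. Its place on the female-biased list is doubtful, since this enzyme is known as male-predominant in rat liver.

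By group, the male-biased list had a higher mean with CVX-060 in 4 genes and a lower mean in 13, where over all genes 7474 were higher and 6743 lower, with a median difference of -0.10 and 0 genes past the adjusted threshold. Its mean level lay between 10.40 and 11.84 in CVX-060 rats and between 9.53 and 12.11 in vehicle rats, which overlap. Gstm2, a glutathione transferase, differed by -0.36 and had the smallest limma p of the list, 0.0949 unadjusted. The steroid dehydrogenase gene Hsd17b2 differed by -1.09 (exact permutation p = 0.278) and Stac3, an adaptor gene of male-biased liver expression, by -1.14 (exact p = 0.341), with 7.40 ± 1.54 in CVX-060 rats and 8.55 ± 1.98 in vehicle rats (SD, n = 5 each). The female-biased list split into 7 higher and 7 lower, with a median of -0.02 and 0 past the threshold. Cyp2c7, a female-predominant P450, differed by -0.19 and had r = -0.10 against Cyp2c11. It was lowest in CVX-060 rat 5 (13.37) and highest in vehicle rat 2 (14.15), the 2 rats highest in Cyp2c12.

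Genes of the growth hormone pathway were compared between the groups and with Cyp2c11 in the same way. Of 28 pathway genes measured of 32 listed, 10 had a higher and 18 a lower mean with CVX-060, with a median of -0.04, and 0 passed either threshold. Over all genes 7474 were higher and 6743 lower. Over 10 rats 2 correlated with Cyp2c11 above 0.8 and 0 below -0.8, beside 2.50% and 3.50% of the 14216 other genes. Over the 8 rats 0 did either, beside 0.950% and 1.10%. The 2 above 0.8 were Igfals and Cebpa, a hepatocyte transcription factor gene at 0.84 over 10 and 0.44 over 8 rats. Cebpa lay at 5.71 in CVX-060 rat 5 and 5.52 in vehicle rat 2 against 6.02 to 6.85 in the others. Ghr at 0.79 and Igfbp2 at -0.80 lay close to the limits, so that these counts depend on the cut-off. Igfbp2, the gene of a binding protein that is raised when growth hormone action is low, lay at 7.98 in CVX-060 rat 5 and 8.64 in vehicle rat 2, against 6.33 to 7.94 in the others. Its difference was 0.56 (exact permutation p = 0.246), and that of the receptor adaptor gene Grb10 was 0.44 (exact p = 0.278).

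Socs2 and Cish are feedback inhibitors induced by Stat5, and Igfbp3 encodes the main carrier of circulating Igf1. These 3 were named after their values were seen. Socs2 was 8.26, 7.87, 8.71, 5.87 and 5.86 in the CVX-060 rats and 7.98, 6.44, 6.78, 7.19 and 5.54 in the vehicle rats. Cish was 8.47, 9.30, 8.24, 7.42 and 6.41 in the CVX-060 rats and 9.88, 8.30, 8.93, 8.29 and 6.83 in the vehicle rats. Both were low in CVX-060 rat 5, but vehicle rat 5, with the highest Cyp2c11 of all rats, was the lowest in Socs2 and second lowest in Cish. Their correlations with Cyp2c11 were 0.28 and 0.22, and that of Igfbp3 was 0.50.

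Over all genes, those whose pattern was most like that of Cyp2c11 by Pearson's r over the 10 rats were Sult1e1 (0.98), Mup5 (0.97), Serpina3l (0.97), Gid8 (0.96), Cdx1 (0.96), Spink1 (0.96), Cyp2c13 (0.96) and Ddt (0.96). Over the 8 rats without the 2 extremes these lay between 0.32 and 0.84, with Mup5 and Gid8 at 0.84. The most opposite were Pter (-0.97), Inpp1 (-0.97), Tmem132a (-0.96), Tfpi (-0.96), Cracd (-0.95), Ccnq (-0.95), Aoc1 (-0.95) and Cd3g (-0.95), which lay between -0.71 and -0.43 over the 8. Tfpi encodes an inhibitor of tissue factor, Aoc1 a diamine oxidase and Cd3g a chain of the T cell receptor complex. Cdx1 and Cracd stayed below 5.34, the lowest background level among the arrays, in all rats. Vehicle rat 2, whose Cyp2c11 lay farthest from the other rats, has the most weight in these correlations.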

How the data were processed

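Liver RNA of 5 CVX-060 and 5 vehicle cirrhotic rats was measured on 1 array per rat, with groups taken from the sample labels. Per the labels and the values, the authors deposited log2 signals for each probe set after normalization between arrays. Tools named in the submitters' processing notes are R 3.4.0, affy 1.56.0 and limma 3.38.2. How background was corrected and probes were summarized is not given in the sources used here, and nothing was normalized again. Of 31099 probe sets, 20826 with a single symbol were kept, covering 14217 genes (57 were controls, 436 had several symbols and 9780 had none). Each gene was read from its most variable probe set.

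Group differences were fitted with limma 3.58.1 under R 4.3.3 (lmFit, eBayes), adjusting p-values over the 14217 genes by Benjamini-Hochberg, with a threshold of 0.05. For the single genes, all 252 assignments of rats to groups gave an exact permutation test, two-sided. Relations across rats were tested by permuting pairings, with 100000 resamples for 10 rats and by enumeration for fewer. The scripts were tested on simulated data. Tables and plots were made in Python 3.11.15 (matplotlib 3.10.9, scipy 1.17.1, pandas 2.3.3, numpy 2.4.6). Promoter windows come from RefSeq (GRCr8).

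The 10 genes and the gene lists were chosen with earlier results of these data known. Of each further list, up to 4 genes with the smallest limma p and up to 4 with the largest absolute correlation with Cyp2c11 were open to naming, with the 8 genes most like and the 8 most unlike Cyp2c11, Col1a1 and Bmal1. The search for ATTGAT and ATCGAT was added after the data were seen. The settings varied were the choice of probe set (highest mean, or each one), a mean signal above the 40th percentile, a second quantile normalization, centring of array medians, array weights, a trended and robust prior, a replicate block, a Bmal1 covariate and subtraction of the hepatocyte marker mean. Each rat was also left out in turn, as were CVX-060 rat 5 and vehicle rat 2 together. The number of arrays limits the precision. Scanner files and healthy livers were not used here.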

Additional observations from a re-analysis of the deposited data

Results flagged for a closer look

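In groups of 5 rats, a rat was singled out where its gap to the nearest other rat was large against the range of its group, past the 95% critical value of Dixon's test. Among 92 groups, CVX-060 and vehicle counted apart for each gene, there were 28 such cases, of which vehicle rat 2 made up 24 and CVX-060 rat 5 made up 3. Chance alone gives about 1 in 20, but most of these genes were chosen because they stand apart in these rats or resemble Cyp2c11, so that the count is a description and cannot be read against chance.

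Among the 10 growth hormone-patterned genes, vehicle rat 2 lay apart in Cyp2c11 (8.99, other vehicle rats 13.68 to 13.93), Cyp2c13 (12.5), Cyp2c12 (12.71), Akr1b7 (10.79), Ghr (10.9) and Igfals (9.63). Among other male-biased genes it was low in Mup5 (7.99), Hsd3b5 (9.41) and Cyp3a18 (11.39), and it was high in Cux2 (6.53), the gene of a repressor found in female liver. CVX-060 rat 5 did not share the high Cux2. Its value of 4.97 was below the background level of its array (5.34) and inside the range of the other 8 rats (3.68 to 5.92). In Cebpa vehicle rat 2 lay at 5.52. Of genes most like Cyp2c11, it was lowest in Sult1e1 (10.27), Serpina3l (13.35), Gid8 (8.89), Cdx1 (4.6) and Spink1 (6.32). Of genes most opposite to it, vehicle rat 2 was highest in Pter (8.15), Inpp1 (9.06), Tmem132a (8.13), Tfpi (8.83), Cracd (4.24), Ccnq (8.88), Aoc1 (8.79) and Cd3g (6.28). CVX-060 rat 5 lay apart from its group in Sult1e1 (11.92), Serpina3l (13.61) and Tmem132a (7.62). The remaining case was Jak2 in vehicle rat 5, at 6.41 against 6.72 to 6.77 in the rest of its group. The mean over stellate cell and myofibroblast markers was also highest in CVX-060 rat 5 (7.97) and vehicle rat 2 (8.10), and its part in these values was not tested.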

How the results depend on the processing

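The count of genes past the adjusted threshold was 0 in limma under every alternative run. At an unadjusted p under 0.05 the count ran from 156 of 8530 genes (filter at the 40th percentile) to 816 of 14216 genes (Bmal1 as a covariate). None of the 10 genes was called under any alternative. With the replicate block 0 genes passed, 389 had an unadjusted p under 0.05 and no call changed. Over all genes, the deviations of rats with the same number correlated at 0.10, -0.10, 0.15, 0.05 and -0.17. Bmal1 was 8.38, 8.75, 8.17, 5.75 and 5.21 in CVX-060 rats 1 to 5. In vehicle rats 1 to 5 it was 7.90, 7.95, 5.13, 4.87 and 4.88, unlike its CVX-060 counterpart mainly in rat 3. Whether rats with the same number share a batch or collection time is not given in the sources used here and was not tested.

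Several differences changed sign. With array weights Cyp2c11 was -0.33, Cyp2c13 -0.0786 and Igf1 0.0325. Igf1 was 0.00296 with the probe set of highest mean, and Cyp2c12 was 0.0573 with Bmal1 as a covariate. Without CVX-060 rat 5 and vehicle rat 2, Cyp2c11 was -0.43, Cyp2c13 -0.145 and Cyp2c12 0.094. With each rat left out in turn, differences lay between -0.82 and 0.54 for Cyp2c11, -0.21 and 0.11 for Cyp2c13, -0.20 and 0.12 for Cyp2a2, -0.87 and 0.90 for Cyp2c12, 0.212 and 2.17 for Sult2a2, -0.000676 and 1.94 for Akr1b7, and -0.17 and 0.10 for Igf1.

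Relations with Igf1 passed with its probe set of highest mean, at 0.79 for Cyp2c11 and -0.85 for Cyp2c12, and that of Cyp2c12 with Col1a1 then passed at 0.67 because adjusted p-values of the family moved. Cyp2c11 with Ghr fell short after quantile normalization (0.77). With the hepatocyte mean subtracted, which varied little because its brightest markers lie near the top of the array scale, Cyp2c11 with Stat5b was -0.0168 and Cyp2c12 with Col1a1 passed at 0.71. Without both rats, Cyp2c11 gave 0.60 with Ghr, 0.20 with Igfals, -0.19 with Stat5b, -0.69 with Col1a1 and 0.0207 with Cyp2c12, and Cyp2c12 gave -0.61, -0.78 and -0.0321 with Ghr, Igfals and Col1a1. With each rat left out in turn, Cyp2c11 gave 0.78 to 0.89 with Ghr, 0.69 to 0.94 with Igfals, -0.00633 to 0.247 with Stat5b and -0.90 to -0.74 with Cyp2c12, and Cyp2c12 gave -0.93 to -0.85 with Ghr, -0.97 to -0.89 with Igfals and 0.51 to 0.77 with Col1a1. Other causes were not tested.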
